A study of Arabidopsis thaliana with 16 samples.

Results

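Sites of WRKY33 alone are places in the Arabidopsis thaliana genome where a peak of tagged WRKY33 was listed in both replicates 2 h after flg22 and no peak of tagged WRKY18 or WRKY40 was listed at that time. They were chosen by the deposited peak calls. Overlapping peaks (1 bp or more) of the 6 lists at 2 h were joined into sites, and a site was kept if both WRKY33 replicates had a peak in it and none of the 4 lists of the other lines did. The rule left 239 sites of the 1236 WRKY33 sites found in both replicates, and of 4901 merged sites in all. The other 997 WRKY33 sites, called shared here, held at least 1 peak of WRKY18 or WRKY40.

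Binding was measured by ChIP-seq, in which DNA that comes down with a tagged protein is sequenced. The groups were Col-0 WRKY33-HA, Col-0 WRKY18-HA and Col-0 WRKY40-HA seedlings given 1 µM flg22 for 2 h, the same 3 lines untreated (0 h), and untagged Col-0 WT seedlings at both times, with 2 biological replicates of each. All seedlings were 12 days old, and flg22 is a flagellin peptide that plants perceive as a sign of bacteria. The HA lines are complementation lines per the series' design text. The promoter of each transgene, the mutant background and the number of independent lines are not given in the labels, and the peak lists hold nothing that checks the tag. Each WT library was the control for the 3 HA lines of its time and replicate. The labels give no mock-treated seedlings, so flg22 and the time in fresh medium cannot be told apart.

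WRKY33 is a transcription factor of plants that acts downstream of the MAP kinases MPK3 and MPK6 and binds short promoter motifs called W-boxes. It is known for its part in resistance to the fungus Botrytis cinerea and for switching on the synthesis of camalexin, the main antimicrobial compound of Arabidopsis. WRKY18 and WRKY40 form a closely related pair in another group of the family and are known to restrain parts of the immune response. Small proteins with a VQ motif bind WRKY factors, WRKY33 among them.

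A larger share of WRKY33 sites than of WRKY18 or WRKY40 sites lay apart from the listed peaks of the other factors. The members made up 19.3% of its reproducible sites (95% interval 17.2 to 21.7). Sites of WRKY40 alone were 40 of 1648 (2.43%, 1.74 to 3.29), and sites of WRKY18 alone were 20 of 1449 (1.38%, 0.845 to 2.12). All intervals in the text are exact Clopper-Pearson intervals and cover counting error only, and no share was tested, since sites of the same libraries are not replicates. A site missing from a list is no evidence that the factor was not bound: each list holds peaks above a threshold, and 67 to 276 peak numbers are absent from the 2 h lists.

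The 20 strongest members lay at genes of varied annotation, and 3 of these genes, MPK5, MYB15 and AT1G78310, belong to the defence lists counted further on. The authors' peak score, whose scale the headers do not give, was 35.0 and 35.1 in replicates 1 and 2 at AT2G27389, a gene for a hypothetical protein. WT scored 1.39 and 0.092 at the same place, which lies on chromosome 2 at 11719559 to 11720488 in build TAIR10, 175 bp upstream of the start. This was the only member among the 100 best peaks of both WRKY33 lists.

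AT5G44565, also without a known function, scored 30.8 and 30.2, against 2.76 and 1.17 in WT. Another uncharacterised gene of chromosome 5, AT5G44568, had a site with 20.6 and 31.2, against 3.35 and 1.78 in WT. At AT5G49525 the site lay 1024 bp upstream of the start and scored 25.5 and 24.0. All 3 genes are annotated only as encoding hypothetical proteins.

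Better known genes followed. MPK5, which encodes a MAP kinase, had a site 16 bp upstream of its start on chromosome 4 (6891772 to 6892306) with 27.9 and 26.8, against 0.603 and 0.975 in WT. The tags behind it were 423 and 324, against 10 and 15 in WT. YLS9, also known as NHL10 and widely used as a marker of the flg22 response, had a site 151 bp upstream (chromosome 2, 15110238 to 15110676) with 21.6 and 25.6, against 2.57 and 1.28 in WT.

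Some of the 20 strongest encode small peptides or proteins named for defence. LCR16, a defensin-like protein, had 23.6 and 23.3 at 1456 bp downstream of its start, a place the authors annotate as intergenic. AT3G48209, a thionin, had 20.5 and 24.0. Thionins and defensins are small cysteine-rich peptides, many of them antimicrobial. AT5G48657, described as a defence protein, had 21.7 and 21.4. The C1-domain gene AT2G42060, which is not described as a peptide or by defence, had 30.1 and 27.3.

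Enzymes and regulators completed this group. AT1G30730 (21.3 and 26.1) and AT4G20860 (20.2 and 23.0) belong to the berberine bridge enzyme-like oxidases. SCPL11, a serine carboxypeptidase-like protein, scored 26.5 and 19.6, and AT2G44500 (an axi 1-like protein) scored 25.7 and 36.9. CYP51G1, a sterol demethylase, scored 18.7 and 24.0 at 3334 bp upstream, and is uncertain because the authors assigned the replicate peaks to different genes. AT1G02270, a calcium-binding protein gene, scored 20.7 and 24.2, and PIRL4, a leucine-rich repeat protein gene, scored 20.5 and 23.8. The transcription factor gene MYB15 (22.2 and 28.2) and the VQ-motif protein genes AT1G78310 (19.4 and 20.1) and AT2G22880 (19.1 and 21.5) were also among the 20. Since these sites are peaks called against the same WT libraries and were then ranked by WRKY33 score, their distance from WT describes the choice and is no separate result.

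**Figure D1:**
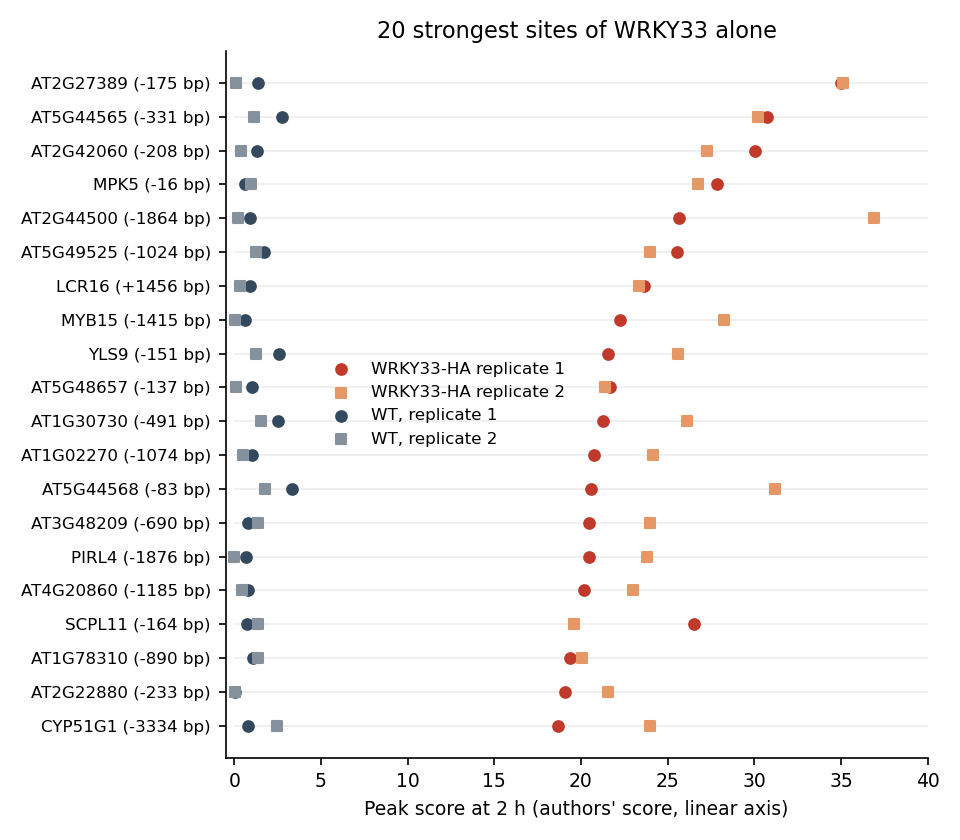
Peak score at 2 h (horizontal axis, linear) of the 20 members with the highest lower score of both replicates, with the distance of the site to the gene's start beside each name. Circles are replicate 1 and squares replicate 2, red and orange for WRKY33-HA and blue and grey for WT; the choice of sites fixes that WRKY33-HA lies to the right of WT, with scores from 35.0 and 35.1 at AT2G27389 to 18.7 and 24.0 at CYP51G1.

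Over all 239 members the WRKY33 scores were lower than at shared sites, as descriptive values of the peak calls that chose them. The score in replicate 1 lay between 10.1 and 35.0 with a median of 13.4 at members, and between 10.008 and 72.3 with a median of 15.8 at shared sites. In replicate 2 the range was 10.004 to 52.6 with a median of 15.1 at members, and 10.004 to 97.1 with a median of 19.4 at shared sites. The highest value of replicate 2 belonged to AT1G14180, named after its values were seen, which encodes a RING-type ubiquitin ligase and scored 18.4 in replicate 1. Both scores reached 15 at 54 members and 20 at 16 members. The members lay within the range of the shared sites and reached up to a lower score in both replicates.

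Tags followed the scores. Members had a median of 232 tags in replicate 1 and 223 in replicate 2, while shared sites had 332 and 357. WT tags at the same places had medians of 13 and 16 at members and 16 and 20 at shared sites. The deposited tag enrichment over WT, a ratio, had medians of 6.81 and 7.50 at members and 7.78 and 9.0 at shared sites. WT scored at least 1 in both replicates at 46 members (19.2%, 14.4 to 24.8) and at 161 shared sites (16.1%, 13.9 to 18.6). Tags of WRKY33 and of WT were thus both lower at members than at shared sites.

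Members were rarer among strong sites. When the 1236 WRKY33 sites were cut into 3 equal groups by rank in both lists, members were 41 of 412 strongest sites (9.95%, 7.24 to 13.3), 74 of 412 in the middle (17.96%, 14.4 to 22.0) and 124 of 412 weakest (30.1%). The replicates also ordered the members less alike: the rank correlation of their scores was 0.284 over 239 members and 0.506 over 997 shared sites. Sites of 1 library share its depth and control, and the narrower score range of the members moves with this value.

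**Figure D2:**
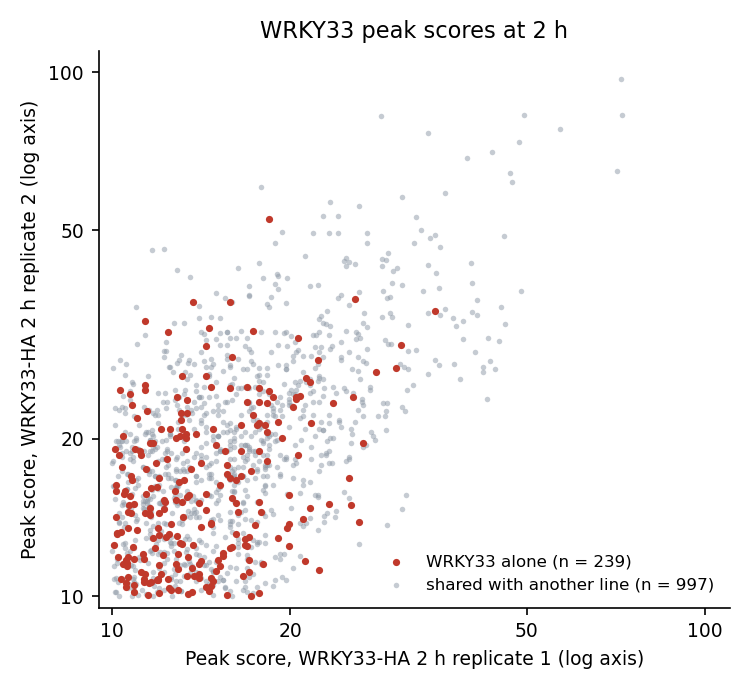
Peak score in WRKY33-HA 2 h replicate 1 (horizontal) against replicate 2 (vertical), both log axes, 1 point per WRKY33 site, red for the 239 sites of WRKY33 alone and grey for the 997 shared sites. Red points crowd at the low end, with medians of 13.4 and 15.1, and none of them passes 35.0 on the horizontal axis, while grey points reach 72.3.

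Member peaks were also narrower. Their median width was 443 bp in replicate 1 and 470 bp in replicate 2, against 572 and 619 bp at shared sites. In the weakest rank group, where scores were alike, the medians were 442 and 469.5 bp at members and 491 and 507.5 bp at shared sites. A wide peak is more likely to overlap another, so width is tied to the rule. The maxima of both replicates lay within 50 bp of each other at 160 members (66.9%, 60.6 to 72.9) and at 599 shared sites (60.1%, 57.0 to 63.1).

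The authors' lists count a peak or no peak, so the edge of the rule deserves a look. Just inside it, the member at ARL, a regulator of organ size, lay 88 bp from a WRKY18 peak of replicate 2 that scored 11.7. At ATPMEPCRD, a pectin methylesterase gene, the gap to a WRKY40 peak that scored 12.8 was also 88 bp, and at AT1G80530 it was 99 bp to a WRKY40 peak that scored 10.8. Just outside it, EMB2279 was left out for an overlap of 22 bp with a WRKY18 peak. MYB62, a transcription factor gene whose WRKY33 scores were 23.2 and 49.5, was left out for 176 bp shared with 1 WRKY40 peak that scored 12.5. AT5G49700 was left out for 179 bp. At the lower limit of score, the member with the lowest single score, emb2735, had 17.2 and 10.004 in the WRKY33 lists.

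Distances to listed peaks of the other lines were mostly longer. Peaks of those lines just under the authors' threshold cannot be seen in the lists. The gap to the nearest 2 h peak of another line had a median of 6098 bp, with a lowest value of 88 and a highest of 473563. It was 500 bp or less at 19 members (7.95%), 1000 bp or less at 36 (15.1%) and 5000 bp or less at 107 (44.8%). These gaps were not set beside those of other places in the genome. On the other side of the rule, 81 shared WRKY33 sites rested on a peak in 1 list of the other lines. The score of that single peak had a median of 11.5 and was under 15 at 77 of them. A further 153 sites with no peak of another line were found in WRKY33 replicate 1 only, and 657 in replicate 2 only.

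Relative to genes, the shares of members were close to those of shared WRKY33 sites. Counted from the authors' distance to the start of the assigned gene, 138 members (57.7%, 51.2 to 64.1) lay 0 to 1000 bp upstream. The same held for 572 shared sites (57.4%, 54.2 to 60.5) and for 57.4% of all 1236 WRKY33 sites. By rank group, strongest to weakest, the share was 63.4%, 54.1% and 58.1% at members and 59.8%, 54.4% and 57.6% at shared sites. The members' promoter share was thus at the background in each rank group.

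The start itself was the usual place. Within 500 bp upstream lay 104 members (43.5%, 37.1 to 50.1) and 402 shared sites (40.3%, 37.3 to 43.4). Beyond 2000 bp upstream were 18 members (7.53%) and 97 shared sites (9.73%), and downstream of the start were 50 members (20.9%) and 189 shared sites (19.0%). The median distance was -292 bp at members and -376 bp at shared sites, where negative means upstream. By the deposited annotation, 142 members lay at a promoter or start, 43 between genes, 39 at a transcript end, 13 in an intron, 1 in an exon and 1 in a 3′ UTR.

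The assigned genes were protein-coding for 227 members (95.0%, 91.4 to 97.4) and for 962 shared sites (96.5%, 95.2 to 97.5). Among the other 12 were 8 pseudogenes and 2 non-coding RNAs. One lay 205 bp upstream of MIR168b, a gene of the microRNA that targets AGO1, with scores of 17.0 and 13.0. It is named here although the rule for named genes does not reach it.

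Along the genome the members were spread less evenly. Chromosomes 1 to 5 held 73, 56, 35, 20 and 55 of them. Chromosome 2 held 23.4% of members (18.2 to 29.3) and 14.2% of shared sites (12.1 to 16.6), while chromosome 4 held 8.37% of members (5.19 to 12.6) and 17.7% of shared sites (15.3 to 20.2). For comparison, 16.7% of annotated loci of the 5 chromosomes lie on chromosome 2 and 15.4% on chromosome 4.

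The counts by chromosome were not among the planned results. The high share on chromosome 2 and the low share on chromosome 4 were not seen in sites that just missed the rule by replicate. In replicate 1 only, the share on chromosome 2 was instead below the 16.7% of loci there. Of the sites with no other line's peak found in WRKY33 replicate 1 only, 14 of 153 (9.15%, 5.09 to 14.9) lay on chromosome 2 and 28 (18.3%, 12.5 to 25.4) on chromosome 4. Of those in replicate 2 only, 97 of 657 (14.8%, 12.1 to 17.7) lay on chromosome 2 and 111 (16.9%, 14.1 to 20.0) on chromosome 4. Within the rank groups, strongest to weakest, chromosome 2 held 22.0%, 25.7% and 22.6% of members and 15.9%, 14.5% and 11.8% of shared sites. Chromosome 4 held 14.6%, 8.11% and 6.45% of members and 17.5%, 16.0% and 19.8% of shared sites.

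**Figure D3:**
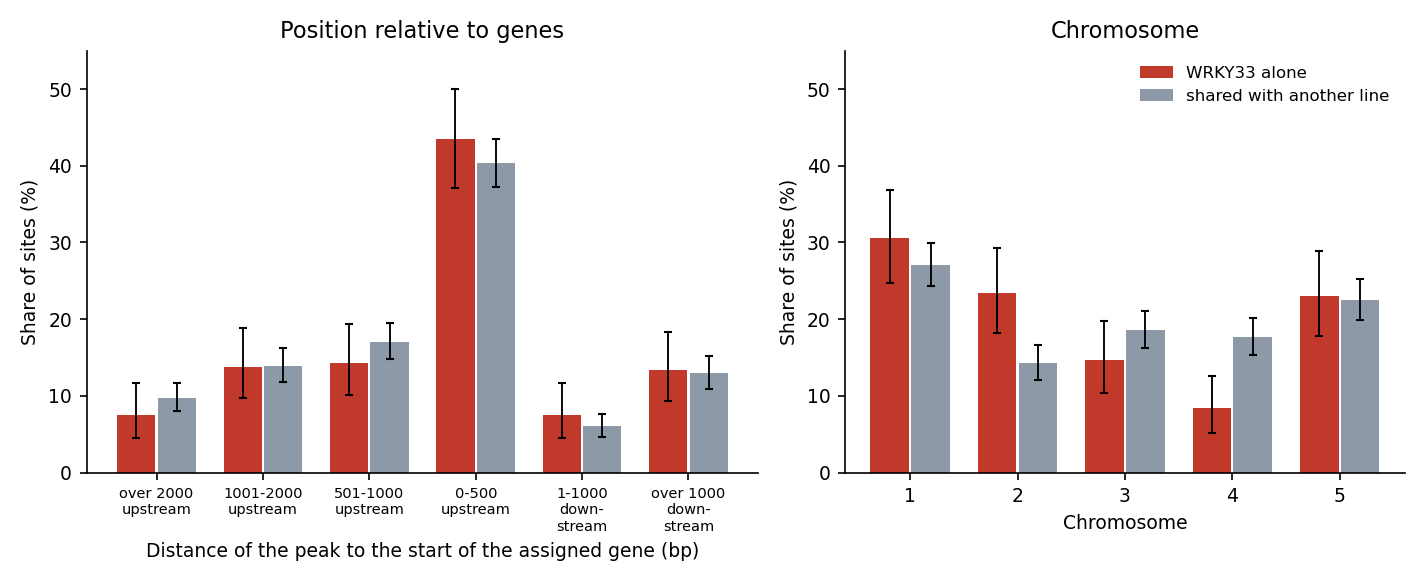
Share of sites in percent by distance to the start of the assigned gene (left, 6 distance classes) and by chromosome (right), red for the 239 sites of WRKY33 alone and grey for the 997 shared sites; error bars are exact 95% intervals for counting error. The bars nearly match by distance (43.5% and 40.3% within 500 bp upstream), while chromosome 2 holds 23.4% and 14.2% and chromosome 4 holds 8.37% and 17.7%.

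The lists of untreated seedlings were not used by the rule. A 0 h peak of WRKY18 lay at 6 members (2.51%, 0.927 to 5.38) and at 537 shared sites (53.9%, 50.7 to 57.0), where the share over all WRKY33 sites was 43.9%. All 6 came from replicate 2 of WRKY18, whose 0 h list held 1843 peaks, and none from replicate 1, whose list held 260. At shared sites replicate 1 gave 130 (13.0%) and replicate 2 gave 521 (52.3%).

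The difference was present in each rank group. Among the strongest sites 2 of 41 members (4.88%, 0.596 to 16.5) and 232 of 371 shared sites (62.5%, 57.4 to 67.5) had a 0 h WRKY18 peak. In the middle group the counts were 1 of 74 members and 186 of 338 shared sites, and in the weakest 3 of 124 members and 119 of 288 shared sites. The lack of a WRKY18 peak at 2 h is part of the rule and comes from the same line, so both times are not independent.

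WRKY33 sites with a 2 h peak of WRKY40 but none of WRKY18 give a closer comparison. Of these, 7 of 57 (12.3%, 5.08 to 23.7) had a 0 h WRKY18 peak, against 2.51% (0.927 to 5.38) of the members. These intervals overlap only narrowly. By rank group, strongest to weakest, the share was 6.25%, 11.1% and 17.4%, against 4.88%, 1.35% and 2.42% at members. With a 2 h WRKY18 peak but none of WRKY40, 10 of 34 sites (29.4%, 15.1 to 47.5) had a 0 h WRKY18 peak. With both, 520 of 906 (57.4%, 54.1 to 60.6) had one. Counted by the number of other lists with a peak, the share was 2.51% at 0 lists, 17.3% at 1, 34.8% at 2, 37.4% at 3 and 69.0% at 4.

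This share depends on the threshold. When only peaks with a score of at least 15 were used in the 6 lists at 2 h, 15.7% of the 121 sites then of WRKY33 alone had a 0 h WRKY18 peak. With the better-scoring 50% of each list it was 18.5%.

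**Figure D4:**
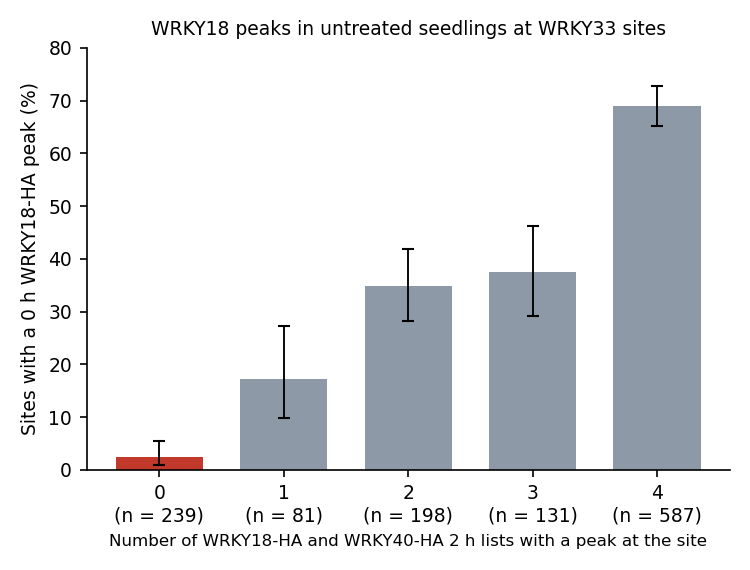
Share of WRKY33 sites in percent that overlap a WRKY18-HA peak of untreated seedlings (vertical), by how many of the 4 lists of WRKY18-HA and WRKY40-HA at 2 h hold a peak there (horizontal), with exact 95% intervals for counting error. The red bar is the 239 sites of WRKY33 alone at 2.51%, and the grey bars go up to 69.0% at the 587 sites found in all 4 lists.

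The 6 members with a WRKY18 peak before flg22 belong to varied genes. LCR16 had a WRKY18 score of 13.5 at 0 h. UTR1, a nucleotide sugar transporter, had 14.0, and XTH18, a cell wall enzyme, had 10.1. GASA5, a gibberellin-regulated peptide gene, had 11.0, AT3G14280 had 13.6 and AT5G37610 had 14.7. All of these 0 h scores were under 15.

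WRKY33 itself had a 0 h peak at 1 member (0.418%), compared with 15 shared sites (1.505%) and 1.29% of all WRKY33 sites. That member lay 890 bp upstream of AT1G78310, a VQ-motif protein gene, on chromosome 1 at 29465588 to 29466191. Its score was 19.4 and 20.1 at 2 h, against 12.1 and 11.2 at 0 h, so both replicates were listed before and after treatment. No member overlapped a 0 h peak of WRKY40, while 12 shared sites did (1.204%).

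The 239 members were assigned to 236 genes. Of these, 42 (17.8%, 13.1 to 23.3) also had a 2 h peak of another line elsewhere at the gene, so a site of WRKY33 alone is not always a gene of WRKY33 alone. The same share over all loci was not counted, so whether 17.8% is high or low is unknown. At 12 members the gene also had a shared WRKY33 site. PCR2, AT1G78310 and MYB15 each had a pair of members, and 18 members in all lay within 5000 bp of another.

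MYB15, known to drive defensive lignin formation, had members and shared peaks at different distances. That the members hold no WRKY18 or WRKY40 peak is fixed by the rule. A member lay 1415 bp upstream of its start (chromosome 3, 8307292 to 8308296) with WRKY33 scores of 22.2 and 28.2, and another at 106 bp upstream (8308738 to 8309468) with 15.9 and 12.4. Farther out, WRKY33 peaks centred 4036 and 4076 bp upstream scored 24.3 and 37.5. In replicate 2 a further WRKY33 peak, centred 2757 bp upstream with 28.6, overlapped the WRKY18 and WRKY40 peaks and ended 76 bp from the member. Every WRKY18 and WRKY40 peak of MYB15 lay in this outer region: the one nearest to the start was centred 2427 bp upstream, a WRKY18 peak of replicate 2 that scored 11.8. WRKY40 scored 17.0 and 32.1 at its strongest peaks there, and WRKY18 scored 22.1 and 30.03. The outer edge of the member at 1415 bp was 321 bp from the nearest of these peaks.

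**Figure D5:**
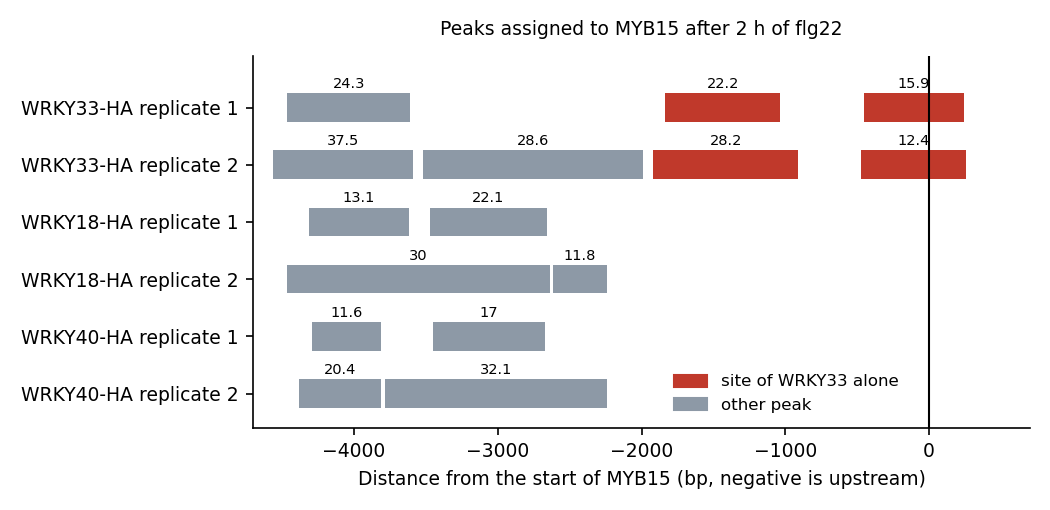
Peaks assigned to MYB15 in the 6 lists at 2 h, 1 row per library, drawn by distance in bp from the start of the gene (vertical line, negative is upstream) with the peak score above each bar. Red bars are the sites of WRKY33 alone, centred near -1415 and -106 bp; grey bars are all other peaks, and those of WRKY18-HA and WRKY40-HA lie more than 2000 bp upstream.

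The oxidase gene AT4G20860 had the opposite layout. Its member lay 1185 bp upstream (chromosome 4, 11171211 to 11171663) with 20.2 and 23.0. Close to the start, WRKY33 scored 12.8 and 16.1 at 190 and 207 bp upstream, WRKY18 scored 18.6 and 18.3 at 42 and 223 bp upstream, and WRKY40 scored 12.7 and 24.5 at 34 and 164 bp upstream. Thus WRKY33 scored higher at the outer site than at the start in both replicates, with fewer tags under the narrower outer peak (249 and 263, against 311 and 413). At AT1G30700, another gene of this oxidase family, the member lay 1259 bp upstream with 11.2 and 18.6. Its other-line peaks lay within 300 bp of the start: WRKY18 scored 27.9 and 24.0, and WRKY40 scored 21.8 and 26.3. WRKY33 scored 21.1 and 23.2 there, at 287 and 298 bp upstream, which is higher than at the member and so the reverse of AT4G20860.

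At PCR2, a gene of metal resistance, both members were upstream, at 970 bp (13.1 and 21.7) and 1993 bp (12.9 and 11.3). A single WRKY40 peak of replicate 2, with a score of 11.6, was centred 251 bp upstream of PCR2. WRKY33 also had a peak near there in replicate 2 only, centred 228 bp upstream with a score of 10.7. At AT1G78310 the second member lay 1484 bp downstream of the start (16.6 and 10.9), at the transcript end by the annotation, and no other line had a peak assigned to the gene.

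Neighbouring genes of a family were sometimes both members. AT1G30720 (13.4 and 10.1) and AT1G30730 lie 1682 bp apart by their sites and both encode berberine bridge enzyme-like oxidases. AT2G42350 (13.4 and 23.7) and AT2G42360 (14.7 and 13.8) encode the ubiquitin ligases ATL40 and ATL41, with sites 619 bp apart. These neighbours, and AT2G42350 and AT2G42360 in particular, are named from the list of close members, outside the rule for named genes.

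A small number of genes of known immune pathways had a member. The 15 lists of defence and stress genes held 309 loci that could be matched by name. Of these, 8 were assigned to members (2.59%, 1.12 to 5.04), against 0.615% of all loci of the 5 chromosomes. For shared sites it was 70 of 309 (22.7%, 18.1 to 27.7), against 2.47% of all loci. Put the other way, list genes were 3.39% of the 236 member genes (1.47 to 6.57) and 7.38% of the 949 genes of shared sites (5.79 to 9.23). The genes for these lists were written from general knowledge, with earlier results of these data known, and none of the lists was tested. The loci behind 0.615% and 2.47% were not limited to protein-coding genes, so these shares may be low for such lists. Nothing is read from the difference between the lists and all loci. Members at YLS9 and at the VQ-motif genes AT2G22880, AT1G35830 and PDE337 are not among the 8.

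Several lists held no member, which at a background of 0.615% is near what lists of this size would hold, and nothing is read from these counts of 0. Of 7 camalexin genes, 0 had a member and 4 a shared site. Of 9 genes of indole glucosinolate defence it was 0 and 5, and of 8 genes of penetration resistance and secretion 0 and 5. Ethylene genes gave 0 and 6 of 22, jasmonate genes 0 and 3 of 25, and danger peptide (PROPEP) genes 0 and 2 of 6. Abscisic acid genes gave 0 and 1 of 23, calcium and reactive oxygen genes 0 and 2 of 21, and autophagy genes 0 and 1 of 15. In both control lists, 25 photosynthesis genes and 13 housekeeping genes, neither kind of site was found.

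The 8 list genes with a member ranged from strong to weak sites. In pattern recognition, 2 of 21 genes had a member and 7 a shared site. PUB23, a ubiquitin ligase that dampens pattern-triggered immunity, had its member 323 bp upstream (11.6 and 14.3, against 0.000024 and 0.228 in WT). PUB23 and MYB15 were the 2 list genes that had a shared WRKY33 site as well. AT3G28450, the pseudokinase BIR2 that holds back the coreceptor BAK1, had its member 127 bp upstream (11.6 and 14.7, against 2.29 and 0.419 in WT).

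CBP60G, a transcription factor gene for salicylic acid synthesis, was the 1 of 27 salicylic acid genes with a member, while 4 had a shared site. Its member lay 922 bp upstream (chromosome 5, 9474497 to 9474941) with 14.1 and 11.7, against 0.784 and 0.702 in WT. The nearest peak of another line was 41301 bp away. Of 29 MAP kinase cascade genes, MPK5 alone had a member and 7 had a shared site. Among 19 other stress transcription factors, MYB15 alone had a member, and 4 had a shared site.

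Of 72 WRKY genes, 2 had a member and 18 a shared site. The member at WRKY65 lay 2983 bp upstream and scored 14.7 and 13.7, and the one at WRKY66 lay 1294 bp downstream of the start, at the transcript end, and scored 13.4 and 11.9. Neither lay in the 1000 bp before the gene. In WT, the WRKY66 site scored 1.81 and 1.60. Of 7 VQ-motif genes matched by name, 1 had a member, AT1G78310, and 1 a shared site.

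The authors' gene descriptions give a wider view, by words they contain. Protein kinases, most of them receptor-like, were 15 of 236 member genes (6.36%, 3.60 to 10.3) and 115 of 949 genes of shared sites (12.1%, 10.1 to 14.4). The word match also takes in PCK2, a metabolic enzyme. Transcription factors and other DNA-binding proteins were 16 member genes (6.78%, 3.92 to 10.8) and 88 genes of shared sites (9.27%, 7.50 to 11.3). The word match for this class leaves out some members, among them CBP60G and the G-box binding factor gene GBF3. Ubiquitin ligases were 14 member genes (5.93%, 3.28 to 9.75) and 35 genes of shared sites (3.69%, 2.58 to 5.09), with AT1G53980, a ubiquitin-like protein gene, also taken in by the word match.

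For the remaining classes the shares were as follows. The intervals of members and shared sites overlapped in these and in the classes above, only narrowly for protein kinases (3.60 to 10.3 against 10.1 to 14.4). Shares of these classes over all loci were not counted. Leucine-rich repeat proteins were 8 member genes (3.39%) and 22 genes of shared sites (2.32%). The word match for them leaves out the member gene AT3G14840, described as a leucine-rich repeat kinase, and may leave out genes of shared sites too. Transporters were 8 (3.39%) and 43 (4.53%). Cytochrome P450 genes were 2 (0.847%) and 9 (0.948%), with CYP71B30P, described as a pseudogene, among the member genes. Calcium-binding proteins were 4 (1.69%) and 16 (1.69%). Glycosyltransferases and glutathione transferases were 8 (3.39%, 1.47 to 6.57) and 15 (1.58%, 0.887 to 2.59). The word match for them takes in the transporter gene UTR1 and leaves out GSTL1. Hypothetical or unknown proteins were 38 member genes (16.1%) and 168 genes of shared sites (17.7%).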

How the data were processed

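Peak lists of 12 HA libraries were used, 1 per library and none pooled by the authors, per the file headers. The submitters' processing notes name build TAIR10 and the tools cutadapt 1.2.1, Bowtie 0.12.7, FastQC 0.11.2 and HOMER. Which of them called the peaks, and with which threshold, is not given in the sources used here. Per the labels' protocols, 2 g of seedlings were used and each library had between 7 and 20 M reads (100 bp, single-end). Library totals are unknown here. The DNA was amplified linearly before sequencing, so tags need not be independent molecules. Deposited per peak are a score and a tag count for the HA library and WT, the fold enrichments of both as ratios, a −log10 q-value, and the gene and distance, per the file headers. How the authors scaled the tag ratio is not stated.

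The 14393 peaks at 2 h were merged with Python 3.11.15, pandas 2.3.3, numpy 2.4.6 and scipy 1.17.1, and plotted with matplotlib 3.10.9. The merging was tested on simulated peaks. Ranks are by score and were taken relative to the length of each list. A site took its position and gene from the WRKY33 peak with the better relative rank. The 3 rank groups come from the mean relative rank in both lists. The named genes are the 20 members with the highest lower score, members in a gene list or with a 0 h peak, the 3 members nearest to another line's peak, the 3 excluded sites with the smallest overlap, and genes with at least 2 members; others are said to be outside the rule. Gene list names were matched to RefSeq (TAIR10.1, names only): 350 of 407 entries matched, and 32 of the unmatched were VQ-motif genes. RefSeq held 233 of the 236 member loci. The members and lists were chosen with earlier results of these data known. Sequence was not analysed here.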

Additional observations from a re-analysis of the deposited data

How the results depend on the processing

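The number of sites of WRKY33 alone was 239. It was 121 when only peaks with a score of at least 15 were used, and 173 to 292 under the other thresholds, list lengths and overlap rules. Leaving out 1 library at a time gave 253 to 899, with 899 without WRKY33-HA replicate 1 and 394 without replicate 2, when a peak of the other replicate sufficed. The promoter share of 57.7% was 54.9% to 59.6% under the other site rules and 57.3% to 58.4% without 1 library; an upstream limit of 2000 bp, added after seeing the data, gave 71.5%. The share with a 0 h WRKY18 peak, 2.51%, was 15.7% at scores of at least 15, 18.5% with the better-scoring 50% of each list and 11.3% with 2 h lists of 1653 peaks each. Without 1 library it was 0 to 5.43%, the lowest without WRKY18-HA 0 h replicate 2 (an alternative added after seeing the data) and the highest without WRKY18-HA 2 h replicate 2. The cause was not tested. A share of W-box motifs was planned and not run, because no sequence was used here. No paired analysis was possible because no result comes from a test. Depth is known only as a range of reads, so weak peaks of any factor may be missing.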

Other observations

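Several enzyme and peptide families, chosen after their values were seen and counted by the authors' descriptions, had members. Defensin-like proteins were encoded by 6 member genes (2.54% of 236) and by 4 genes of shared sites (0.421% of 949), and AT1G35537 is in both counts. Besides LCR16 these were LCR81 (15.7 and 17.1 in WRKY33 replicates 1 and 2), AT2G17723 (14.8 and 20.9), LCR39 (12.1 and 20.9), AT1G35537 (12.2 and 12.0) and AT5G39365 (10.5 and 15.7). Glutathione transferases, which conjugate toxic compounds to glutathione, gave 5 member genes (2.12%) and 4 genes of shared sites (0.421%). GSTL1 scored 19.9 and 15.6, GSTU3 11.8 and 19.6, GSTU10 11.4 and 17.5, GSTF3 10.6 and 10.4, and GSTF9 10.2 and 16.3. Berberine bridge enzyme-like oxidases gave 4 member genes (1.69%) and 5 genes of shared sites (0.527%), and AT1G30700 and AT4G20860 are in both counts. VQ-motif proteins gave 4 member genes (1.69%) and 8 genes of shared sites (0.843%): beside AT1G78310 the members were AT2G22880 (19.1 and 21.5, 233 bp upstream), AT1G35830 (14.6 and 32.5, 3510 bp downstream of the start) and PDE337 (10.5 and 11.5, 178 bp upstream). C1-domain proteins gave 4 and 4 (1.69% and 0.421%). Since these families were picked for their counts, the shares are a description and support nothing.

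A few further members are named after their values were seen and stand for no group: the list of calcium and reactive oxygen genes had 0 members among 21 genes. AOX1D, an alternative oxidase, had a site 119 bp upstream with 16.5 and 17.0, against 0.143 and 0.95 in WT. CSD1, a cytosolic superoxide dismutase, had 14.4 and 15.7 at 168 bp upstream, and APX1, an ascorbate peroxidase, had 12.5 and 10.3 at 171 bp upstream. PUMP1, a mitochondrial uncoupling protein, had 17.4 and 13.7 at 120 bp upstream. The catalase gene CAT1 had 19.9 and 12.5 at 377 bp downstream of its start, against 1.55 and 2.83 in WT. By the annotation this CAT1 site lies at a transcript end. All 5 sites lay within 500 bp of a gene start, and the nearest 2 h peak of another line was at least 3192 bp away.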
